A study of Mus musculus with 8 samples.

Results

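The immediate early stress genes described here were 10 genes chosen by symbol: Fos, Fosb, Jun, Junb, Atf3, Egr1, Ier2, Ier3, Zfp36 and Dusp1. They are 10 of the 39009 entries in each gene table, and all 10 were found once in each of 8 mouse RNA-seq libraries. The study made pluripotent stem cells from 2 kinds of embryonic cells with small molecules alone, called chemically induced pluripotent stem cells (CiPSC). The libraries were neural stem cells (NSC, from E13.5 embryos, cultured to passage 2), 3 NSC-CiPSC lines (lines 1, 2 and 3), primary small intestinal epithelial cells (IEC, from E13.5 embryos), 2 IEC-CiPSC lines (lines 10 and 13) and R1 embryonic stem cells (ESC). The NSC strain label was C57BL/6J-Tg(GOFGFP)11Imeg/RbrcxICR, a cross that carries a GFP transgene. The IEC and all 5 CiPSC labels had the same text apart from the number before Imeg, which ran up to 17, and ESC came from 129X1 x 129S1. NSC, IEC and ESC were 1 library each. The labels do not say whether the CiPSC lines came from separate animals or whether embryos were pooled, so p-values measure only the spread between these lines. Levels are FPKM (fragments scaled by transcript length and library depth), each with a 95% interval within its library. The interval does not cover spread between samples. Only for 5 of the 10 members did it imply whole fragment numbers in every library, so for the others it may hold more than counting error.

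Immediate early genes are transcribed within minutes of a growth factor or stress signal, without new protein synthesis, largely through serum response factor and CREB at their promoters, and their mRNAs are short-lived. Fos, Fosb, Jun, Junb and Atf3 encode basic leucine zipper proteins, of which Fos and Jun pair to form AP-1. Egr1 encodes a zinc finger transcription factor. Zfp36 (tristetraprolin, which drives decay of AU-rich mRNAs) and Dusp1 (a phosphatase that switches off MAP kinases) act as negative feedback, Ier3 encodes a regulator of cell survival, and Ier2 encodes a nuclear protein.

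The promoters of 3 members are shown because their genes had 3 different patterns across the libraries: Fos was high in both starting cells, Zfp36 was high in IEC, and Dusp1 was high in the IEC-CiPSC lines. Each is given 5′ to 3′ on the gene's strand, from RefSeq on GRCm38.p6, and stops before the first exon of the gene model in the files. Capitals mark TATAAA, the CRE TGACGTCA and its core TGACG, on either strand, and the CArG box that serum response factor binds.
Fos promoter (chr12:85473640-85473889, plus strand): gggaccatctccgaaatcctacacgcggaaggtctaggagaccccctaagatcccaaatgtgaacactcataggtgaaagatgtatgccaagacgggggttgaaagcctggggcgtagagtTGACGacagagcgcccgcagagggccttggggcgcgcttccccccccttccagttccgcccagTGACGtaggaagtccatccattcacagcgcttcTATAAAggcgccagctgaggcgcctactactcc
Zfp36 promoter (chr7:28379256-28379478, minus strand): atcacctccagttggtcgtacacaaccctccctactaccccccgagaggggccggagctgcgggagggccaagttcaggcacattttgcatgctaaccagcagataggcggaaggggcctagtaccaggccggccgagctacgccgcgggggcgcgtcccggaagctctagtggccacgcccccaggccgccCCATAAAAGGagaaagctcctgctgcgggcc
Dusp1 promoter (chr17:26508520-26508722, minus strand): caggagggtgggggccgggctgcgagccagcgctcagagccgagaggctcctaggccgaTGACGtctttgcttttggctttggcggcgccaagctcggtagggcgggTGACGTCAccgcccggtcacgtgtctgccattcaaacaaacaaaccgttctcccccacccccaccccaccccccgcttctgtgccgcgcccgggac
Positions are counted from the RefSeq start site, with searches over 250 bases before to 50 after it on both strands. Fos held TGACG at -129 and -66 and TATAAA at -33. The CArG box of Zfp36 lay at -58. Dusp1 held the full TGACGTCA at -143, which contains the core on both strands, and a further TGACG at -191. RefSeq windows were matched for 8 of the 10 members, and Egr1 and Ier2 had none. TGACG was found in 5 of the 8 (Fos, Fosb, Junb, Atf3 and Dusp1) and in 20.8% of all 32851 windows of the same length. TGACGTCA was found in 1 of 8 members and 1.79% of windows, a CArG box in 1 of 8 and 1.63%, TATAAA in 2 of 8 and 13.6%, and the AP-1 motif TGANTCA in 0 of 8 and 7.81%. Also searched were the GC box GGGCGG (7 of 8 and 35.7%) and the EGR motif GCGNGGGCG (2 of 8 and 5.55%). Capitals were not used for these last motifs. A match describes letters only. Sites outside these windows were not searched, so the lack of a match does not mean that a gene, Fos included, lacks the motif.

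FPKM sums ran from 661114 to 771389, and mitochondrial transcripts held between 1.94% (NSC-CiPSC line 2) and 11.6% (NSC) of the sum. The cell type labels were checked against marker genes. NSC had all 6 neural stem cell markers at FPKM 10 or more, and the pluripotency markers summed to 0.571 in IEC and to as much as 8493 in IEC-CiPSC line 10. In IEC only 1 of 6 intestinal epithelial markers reached FPKM 10 (summed FPKM 21.5, against 1.36 to 17.1 in the cultured libraries). Of 8 general epithelial markers, 6 reached FPKM 10 in IEC (194, against 0.711 to 311), and 6 also did in each NSC-CiPSC line. The IEC library also held all 8 fibroblast and mesenchyme markers at that level (summed FPKM 7414, against 72.1 to 1056 in the cultured libraries), all 6 smooth muscle markers (3982, against 5.35 to 95.8), 7 of 8 macrophage markers (3534, against 0.308 to 0.848) and all 6 hepatic markers (5776, against 0.214 to 0.771). Endothelial markers summed to 3.38 in IEC, with Cldn5, Emcn and Tie1 listed at 0, and the 5 erythroid markers found summed to 0.902. Every value printed for IEC is that of this mixed library. The part of these other cells in the results was not tested, and in bulk RNA more cells of a type cannot be told apart from more RNA per cell.

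In IEC 6 members were higher than in the cultured cells: Fos, Jun, Egr1, Junb, Atf3 and Zfp36. Levels of each member by library fall into 3 descriptive patterns, grouped after the values were seen. Fos, Jun and Egr1 were high in IEC and NSC and low in the pluripotent cells. Junb, Atf3 and Zfp36, with Fosb at a very low level, were highest in IEC, with NSC at or near the bottom. Ier2, Ier3 and Dusp1 were not highest in IEC.

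**Figure D1:**
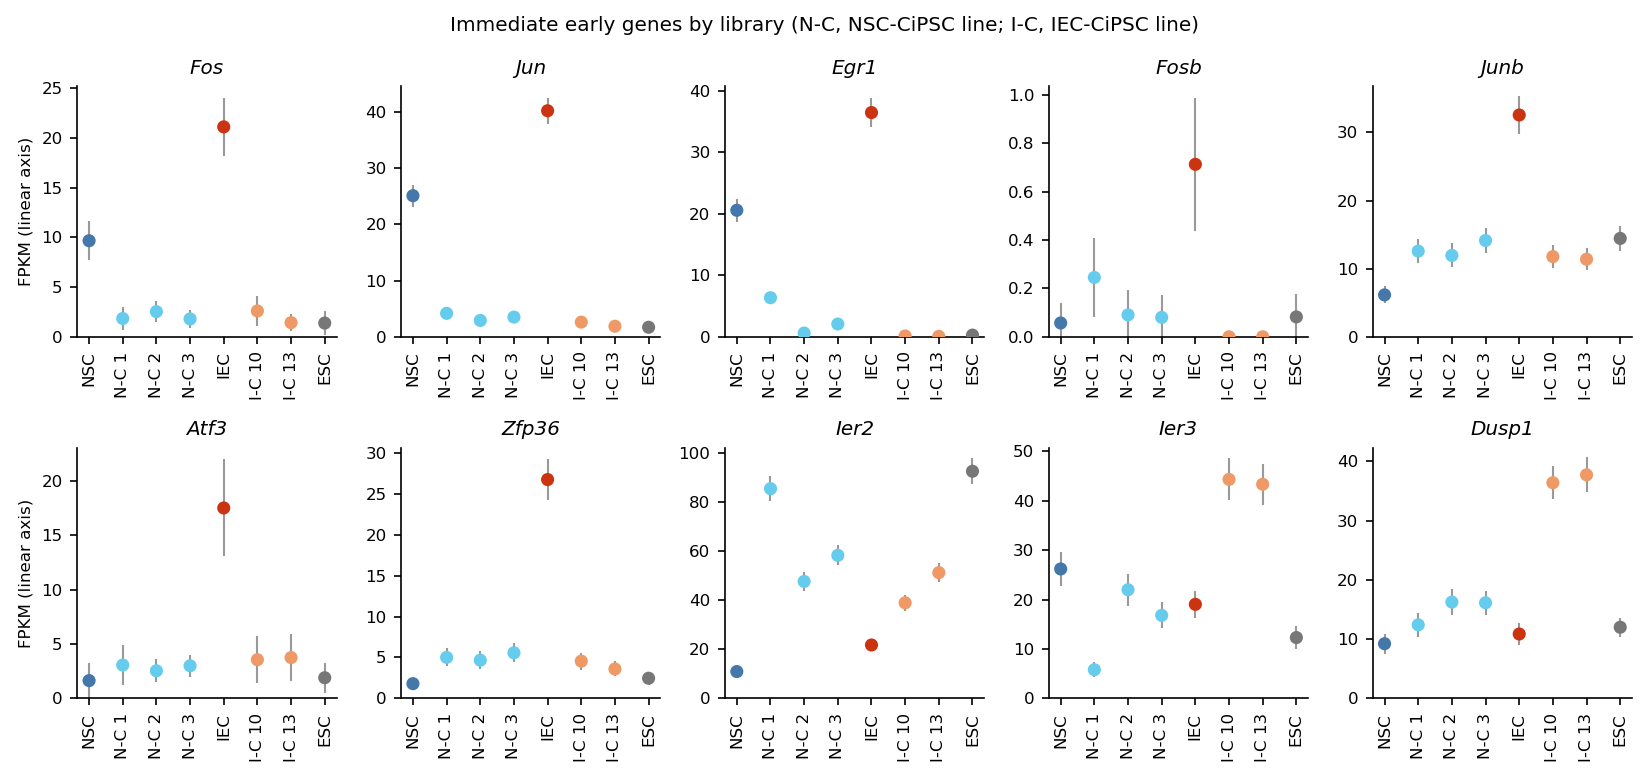
FPKM of each of the 10 members (1 panel each, linear axis from 0) in the 8 libraries, with points for the level and lines for the 95% interval within the library; N-C and I-C are the NSC-CiPSC and IEC-CiPSC lines. IEC is the highest point for 7 members, while Ier2 peaks in ESC and Ier3 and Dusp1 peak in the IEC-CiPSC lines.

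Fos (chr12:85473890-85477273, plus strand, mm10) had an FPKM of 21.1 in IEC (interval 18.2 to 24.1) and 9.67 in NSC. In the NSC-CiPSC lines it had 1.84, 2.54 and 1.80, in the IEC-CiPSC lines 2.60 and 1.42, and in ESC 1.38. The order was IEC, NSC and then the 6 pluripotent libraries, among which the 2 CiPSC groups overlapped (2.06 ± 0.414, SD, n = 3, and 2.01 ± 0.834, SD, n = 2). Jun, the main partner of Fos (chr4:95049034-95052222, minus strand), had 40.2 in IEC (interval 37.8 to 42.5) and 25.1 in NSC. Jun had 4.17, 2.91 and 3.50 in the NSC-CiPSC lines, 2.61 and 1.88 in the IEC-CiPSC lines and 1.69 in ESC. It therefore had the same order as Fos, and the lowest NSC-CiPSC line stood just above the highest IEC-CiPSC line. The antisense transcript BC042782 overlaps the single exon of Jun and had an FPKM of 3.61 in IEC and 0 to 1.22 elsewhere. Use of strand in counting is not given in the sources used here, so reads of the pair may not be told apart.

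Egr1 (chr18:34859823-34864984, plus strand) had an FPKM of 36.5 in IEC (interval 34.1 to 38.9) and 20.6 in NSC. It had 6.35, 0.605 and 2.08 in the NSC-CiPSC lines, 0.132 and 0.0659 in the IEC-CiPSC lines and 0.275 in ESC. Egr1 was thus lowest in the IEC-CiPSC lines and ESC, and it spread 10.5-fold over the NSC-CiPSC lines. NSC exceeded ESC by 6.998-fold for Fos, 14.8-fold for Jun and 74.9-fold for Egr1, 1 library against 1 with no replicate check. Both starting cell libraries stood above all 6 pluripotent libraries for these 3 of the 9 tested members, against 25.4% of all 17011 genes tested.

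Junb (chr8:84976909-84978748, minus strand), an AP-1 subunit with weaker activity than Jun, had an FPKM of 32.6 in IEC (interval 29.8 to 35.3) and 6.15 in NSC. The NSC-CiPSC lines had 12.6, 11.9 and 14.1, the IEC-CiPSC lines 11.8 and 11.4, and ESC 14.4. The pluripotent libraries lay within a narrow band, between NSC below and IEC above. Atf3 (chr1:191170296-191183340, minus strand), a factor induced by many stresses, had 17.5 in IEC (interval 13.1 to 22.0) and 1.63 in NSC (interval 0.00934 to 3.25). Atf3 had 3.06, 2.53 and 2.99 in the NSC-CiPSC lines, 3.56 and 3.75 in the IEC-CiPSC lines and 1.89 in ESC. The interval of NSC overlapped those of the pluripotent range, so the order below IEC is loose.

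Zfp36 (chr7:28376784-28379255, minus strand) had an FPKM of 26.8 in IEC (interval 24.3 to 29.3) and 1.79 in NSC. It had 5.01, 4.67 and 5.57 in the NSC-CiPSC lines, 4.56 and 3.60 in the IEC-CiPSC lines and 2.46 in ESC. The intervals imply 453 fragments for Zfp36 in IEC and 28 in NSC. IEC stood 4.81-fold above the next library for Zfp36 and 4.68-fold for Atf3, against 2.25-fold for Junb, 2.18-fold for Fos, 1.77-fold for Egr1 and 1.60-fold for Jun. Fosb (chr7:19302721-19310045, minus strand), a close relative of Fos, reached only 0.713 in IEC (interval 0.439 to 0.988, implying 27 fragments). It had 0.0571 in NSC, 0.245, 0.0906 and 0.0803 in the NSC-CiPSC lines, 0 in both IEC-CiPSC lines and 0.0822 in ESC, so it missed the minimum of FPKM 1 in at least 1 library and was not tested.

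Ier2 (chr8:84661331-84662852, minus strand) had its lowest FPKM in NSC, 10.9, and its next lowest in IEC, 21.7. The NSC-CiPSC lines had 85.3, 47.6 and 58.2, the IEC-CiPSC lines 38.9 and 51.1, and ESC 92.4. Every pluripotent library thus stood above both starting cells, the reverse of Fos, Jun and Egr1. The share of all genes with this order was not computed, and 25.4% of tested genes had the reverse order. Dusp1 (chr17:26505590-26508519, minus strand) had 36.4 and 37.7 in the IEC-CiPSC lines, and 9.21 to 16.2 in the other 6 libraries. Among those 6, NSC had 9.21, IEC 10.9, ESC 12.0 and the NSC-CiPSC lines 12.4, 16.2 and 16.1. The IEC-CiPSC lines did not overlap any other library, and the share of all genes with such a gap was not computed. Ier3 (chr17:35821684-35822923, plus strand) was also highest there, at 44.3 and 43.3, with 26.2 in NSC, 19.0 in IEC, 12.3 in ESC and 5.79, 22.0 and 16.8 in the NSC-CiPSC lines. Line 1 was the lowest library of all for Ier3.

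The comparison of primary IEC with cultured cells set the IEC library against the mean of the 4 cultured groups on log2(FPKM + 1), a scale that understates changes of low genes. Calls needed both a change of at least 2-fold and an adjusted p (limma, Benjamini-Hochberg over all genes tested) under 0.05. The spread of the single libraries was taken from the CiPSC lines, and an exact permutation test of 1 library against 7 cannot give a p below 1 in 8. Of the 9 members tested, 6 were higher in IEC and 0 lower, against 23.2% and 16.7% of all genes. The members' median difference was 2.44 (log2), beside -0.05 for all genes. Members were chosen with earlier results of these data known, so the choice may have shaped both contrasts with all genes. Each of the 9 also reached FPKM 1 in a cultured library.

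Zfp36 was higher in IEC by 2.74 ± 0.17 (log2, SE, adjusted p = 0.000503) and Atf3 by 2.44 ± 0.14 (adjusted p = 0.000371). Jun was higher by 2.87 ± 0.22 (adjusted p = 0.000975), Fos by 2.51 ± 0.28 (adjusted p = 0.00281) and Junb by 1.51 ± 0.11 (adjusted p = 0.000900). These 5 have the smallest adjusted p among the members. Egr1 differed most, by 3.57 ± 0.84 (adjusted p = 0.0243), with the largest error. The call for Egr1 was lost without NSC-CiPSC line 3 (adjusted p = 0.0617), IEC-CiPSC line 10 (0.0666) or line 13 (0.0677). Ier2 (-0.90, adjusted p = 0.0934), Dusp1 (-0.50, 0.0639) and Ier3 (-0.13, 0.888) did not pass. Against the pluripotent groups alone, Ier2 was lower in IEC by -1.51 (adjusted p = 0.0228). With the spread taken over all 7 cultured libraries, whose cell types differ, Jun (3.08, adjusted p = 0.0906) and Egr1 (adjusted p = 0.142) no longer passed. In that setting 4 members were called, beside 2356 of all 17011 genes higher and 992 lower. With the spread of the CiPSC lines these were 3939 and 2837.

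By order alone, IEC was the highest of 8 libraries for 6 of the 9 tested members, against 27.4% of genes tested. It was also highest for Fosb, which was not tested. The IEC interval lay above every cultured interval for these members, and the share of all genes with such intervals was not computed. Scaling moved the balance over all genes but not the number of members. Deposited FPKM gave 3939 genes higher and 2837 lower in IEC, quantile normalization 3278 and 3762, and median-ratio scaling 5096 and 1933. The median of all genes was -0.27 and 0.26 (log2) under those scalings, and 6 members were called higher under both.

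**Figure D2:**
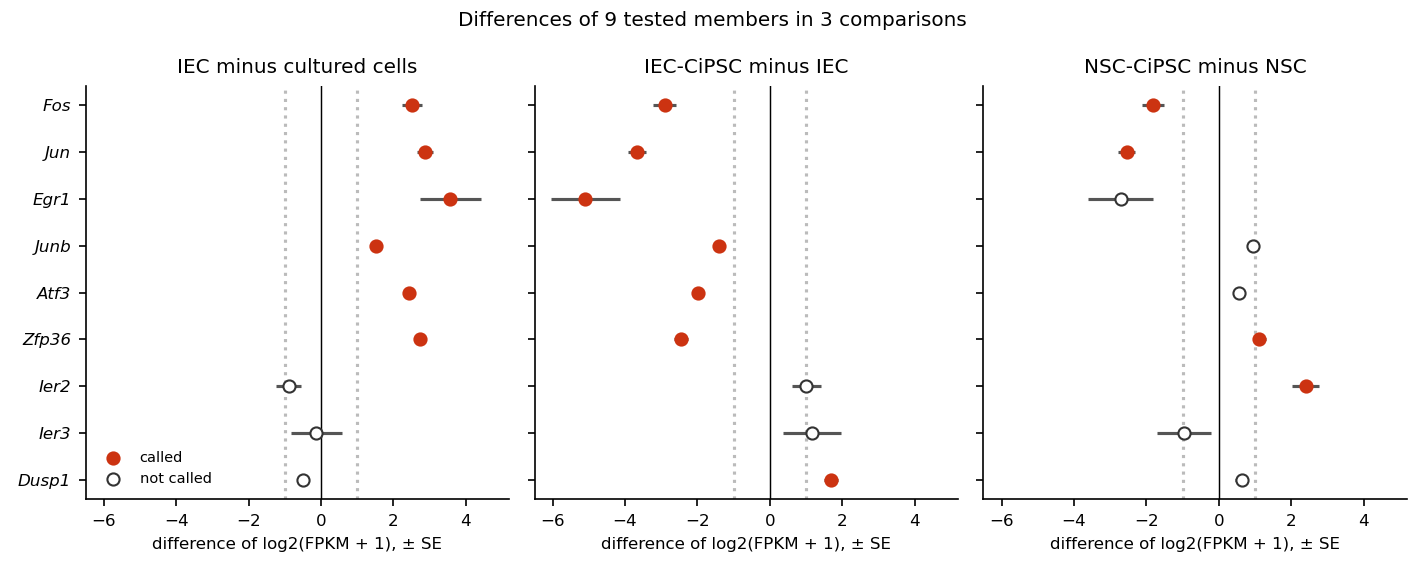
Difference of each tested member (log2 scale, points, with lines for the standard error) in the comparisons named on the panels; filled points are called and dotted lines mark 2-fold. In IEC against cultured cells, 6 members lie to the right, from Junb at 1.51 to Egr1 at 3.57, and Ier2, Ier3 and Dusp1 lie below 0.

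Set directly beside each other, the 2 starting cell libraries differed at least 2-fold for 4 of the 9 tested members, all lower in NSC: Fos (-1.05, log2), Junb (-2.23), Atf3 (-2.82) and Zfp36 (-3.32). By the same size rule 15.5% of genes were higher and 20.5% lower in NSC, with no test since each is 1 library. Jun (-0.66), Egr1 (-0.80), Ier2 (-0.93), Dusp1 (-0.21) and Ier3 (0.44) stayed within 2-fold. Against ESC, NSC was at least 2-fold higher for Egr1 (4.08), Jun (3.27), Fos (2.16) and Ier3 (1.03), and lower for Ier2 (-2.97) and Junb (-1.11), 4 and 2 members beside 23.9% and 22.2% of genes. The difference between NSC and the pluripotent cells thus split the AP-1 genes, with Jun above and Junb below.

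The intestinal route compares IEC-CiPSC with IEC and shares the IEC library with the comparison above. Of the 9 tested members, 6 fell and 1 rose, beside 26.2% and 19.1% of genes. Egr1 fell by 5.09 (log2, SE 0.95, adjusted p = 0.0122), Jun by 3.68 (SE 0.25, 0.000672), Fos by 2.90 (SE 0.32, 0.00255) and Zfp36 by 2.46 (SE 0.19, 0.000950). Atf3 fell by 1.99 (SE 0.15, adjusted p = 0.000921) and Junb by 1.42 (SE 0.13, adjusted p = 0.00152). Dusp1 rose by 1.68 ± 0.19 (adjusted p = 0.00295), while Ier2 (1.01, 0.0948) and Ier3 (1.16, 0.272) did not pass. Egr1 was lost without line 10 (adjusted p = 0.0574) or line 13 (0.0602). Without NSC-CiPSC line 1, which enters through the shared spread, Ier3 (1.16, adjusted p = 0.0162) and Ier2 (1.01, 0.0387) were called. Over all genes, 3252 rose and 4462 fell, against 4080 and 3674 after quantile normalization and 2417 and 5564 after median-ratio scaling.

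In the neural route, NSC-CiPSC against NSC, 2 members rose and 2 fell, beside 18.3% and 20.7% of genes. Jun fell by 2.54 (SE 0.24, adjusted p = 0.00204) and Fos by 1.81 (SE 0.30, adjusted p = 0.00943). Ier2 rose by 2.40 ± 0.38 (adjusted p = 0.00832) and Zfp36 by 1.12 ± 0.18 (adjusted p = 0.00876). The call for Zfp36 is close to the 2-fold limit, as its difference was 0.998 after median-ratio scaling and 0.57 with a pseudocount of 5. Junb (0.95, adjusted p = 0.00465), Dusp1 (0.63, 0.0449) and Atf3 (0.55, 0.0343) passed the p limit but stayed under 2-fold, and Junb was called without line 2 (1.00). Egr1 (-2.70, adjusted p = 0.0643) was called without line 1 (-3.28, 0.0140). Ier3 (-0.95, adjusted p = 0.342) did not pass.

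The change in the intestinal route minus that in the neural route compares the routes. It was added as a comparison of member counts after the values were seen. NSC and IEC enter as 1 library each, so its p-values do not measure spread between samples of starting cells. For Zfp36, Atf3 and Junb, NSC-CiPSC minus IEC-CiPSC was 0.27, -0.27 and 0.14 (log2). For the same genes NSC minus IEC was -3.32, -2.82 and -2.23, so the differences below come mainly from the 2 starting libraries. Zfp36 (-3.58 ± 0.26, adjusted p = 0.00135), Atf3 (-2.55 ± 0.21, 0.00195) and Junb (-2.37 ± 0.18, 0.00145) changed more negatively in the intestinal route, and Dusp1 more positively (1.05 ± 0.26, 0.0431). That is 1 member higher and 3 lower, beside 12.9% and 17.6% of genes. Jun (-1.14, adjusted p = 0.0680), Egr1 (-2.39, 0.228) and Fos (-1.09, adjusted p = 0.1246) did not pass, nor did Ier2 (-1.40, 0.123) and Ier3 (2.11, 0.209). Ier3 was called without NSC-CiPSC line 1 (1.59, adjusted p = 0.0262). The Dusp1 call was lost in 9 of 13 alternatives, with an adjusted p of up to 0.135, and Jun was called after quantile normalization (-1.36, 0.0494) and median-ratio scaling (-1.39, 0.0444).

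**Figure D3:**
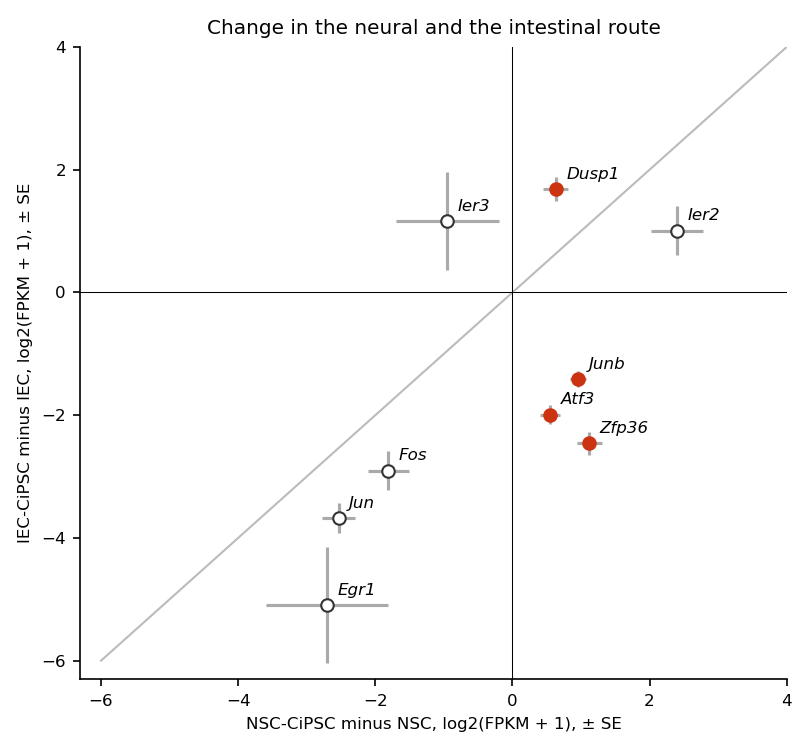
Change of each tested member in the neural route (NSC-CiPSC minus NSC, horizontal, log2) against the intestinal route (IEC-CiPSC minus IEC, vertical, log2), with lines for the standard error and filled points where the routes differed by the test; the diagonal marks equal change. Fos and Jun fell in both routes, whereas Zfp36 rose by 1.12 in one and fell by 2.46 in the other.

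The pluripotent groups were then compared with each other. In NSC-CiPSC against ESC, 0 members were called by limma, beside 0.946% of genes higher and 1.86% lower, and 3 of the 9 members had an unadjusted p under 0.05, as did 22.1% of genes. Zfp36 (0.81, adjusted p = 0.102), Jun (0.74, 0.188) and Egr1 (1.38, 0.459) did not pass. In IEC-CiPSC against ESC, Dusp1 was higher by 1.55 ± 0.19 (adjusted p = 0.0345), the 1 member called, beside 1.63% higher and 1.73% lower. Between the CiPSC groups Dusp1 was again the 1 member called, lower in the NSC-CiPSC lines by -1.27 ± 0.14 (adjusted p = 0.0221), beside 1.56% higher and 2.76% lower. These comparisons share the IEC-CiPSC lines. Dusp1 was lost in both without NSC-CiPSC line 2 (adjusted p = 0.0765 and 0.0615) or line 3 (0.103 and 0.0919). Its difference hardly moved, at 1.55 and -1.32 without line 3, and calls over all genes fell as well. Against ESC they went from 277 higher and 295 lower to 79 and 130 without line 3, and to 472 and 418 without line 1. Between the CiPSC groups they went from 265 and 470 to 40 and 102, and to 323 and 466. Dusp1 was also lost without IEC-CiPSC line 10 (1.575 and -1.29) or line 13 (1.52 and -1.24). Ier3 was not called against ESC (1.75, adjusted p = 0.283) or between the CiPSC groups (-1.67, 0.167), and was called in both without NSC-CiPSC line 1 (1.75, 0.0380, and -1.15, 0.0464).

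Egr1, Ier3 and Ier2 varied most among the NSC-CiPSC lines. The range over the 3 lines was 2.20 (log2) for Egr1, larger than in 99.3% of tested genes, and 1.76 for Ier3, larger than in 98.8%. Ier2 spread by 0.83, larger than in 87.8%. The median range over all genes was 0.35. Line 1 was the highest of the 3 for Egr1 and Ier2 and the lowest for Ier3. The other 6 tested members ranged over 0.20 to 0.40.

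The make-up of the Jun family also differed by library. Jun made up 50.3% of the summed FPKM of Jun, Junb and Jund in NSC and 35.5% in IEC. Its share was 10.0%, 6.20% and 5.82% in the NSC-CiPSC lines, 7.74% and 5.47% in the IEC-CiPSC lines and 4.84% in ESC. The ratio of Jun to Junb was 4.08 in NSC, 1.23 in IEC and 0.117 to 0.332 in the pluripotent libraries. The family sum was 113 in IEC, 49.9 in NSC and 33.7 to 60.1 in the pluripotent libraries, so NSC lay inside the pluripotent range in total and outside it in composition. The Fos family summed to 42.9 in IEC, 14.3 in NSC and 2.14 to 4.54 in the pluripotent libraries. In IEC, Fosl2, a Fos relative, held 47.4% of that sum, with an FPKM of 20.3 against 2.53 in NSC and 0.155 to 0.824 in the pluripotent libraries. These shares are descriptions of single libraries.

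**Figure D4:**
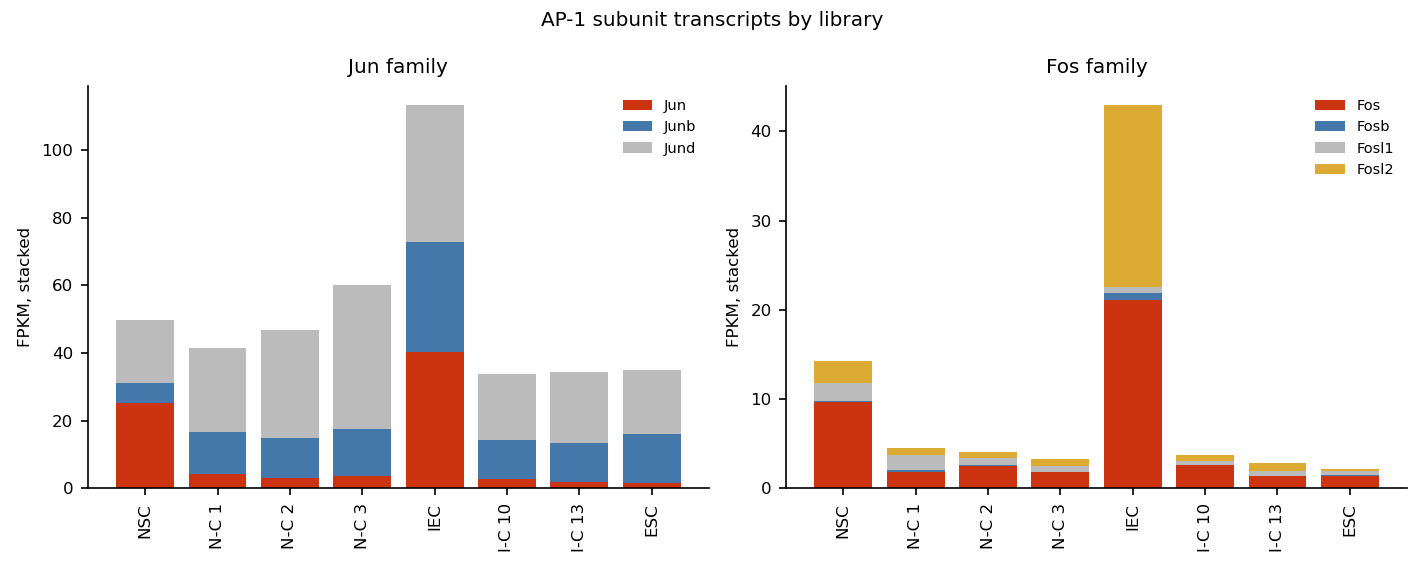
FPKM of the Jun family (Jun, Junb, Jund) and of the Fos family (Fos, Fosb, Fosl1, Fosl2) in each of the 8 libraries, as stacked bars on a linear axis from 0. Jun fills 50.3% of the Jun family bar in NSC and at most 10.0% in any pluripotent library.

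Related genes were taken from 8 lists by role. Of 31 tested other immediate early genes, 9 were higher and 5 lower in IEC than in cultured cells, beside 23.2% and 16.7% of all genes, with a median of 0.26 (log2) beside -0.05. The largest were Cyr61 (3.60, adjusted p = 0.00718) and Ctgf (3.58, 0.00971), both secreted matricellular proteins, Fosl2 (3.51, 4.67e-05) and Zfp36l1 (2.17, 0.000856). Cyr61 had an FPKM of 129 in IEC and 3.90 to 36.1 in the cultured libraries. IEC was the highest library for 12 of the 31. No difference between this list and the members was tested. In the intestinal route 7 of the 31 rose and 10 fell, shares near the 19.1% and 26.2% of all genes, with Fosl2 (-3.63, adjusted p = 6.38e-05) and Ier5 (-2.90, 0.000726) among them. In the neural route 10 rose and 4 fell, beside 18.3% and 20.7% of all genes, led by Klf2 (4.42, adjusted p = 0.000429), whose FPKM was 1.11 in NSC and 37.6 to 49.99 in the NSC-CiPSC lines, and Socs3 (3.20, 0.000166), a cytokine signalling inhibitor.

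Among 7 tested AP-1 relatives, 3 were higher in IEC and 0 lower (median 0.86), beside 23.2% and 16.7% of all genes. The 3 were Batf (2.13) and Jdp2 (1.99) besides Fosl2. Batf reached FPKM 1 in IEC alone (5.03, against 0 to 0.788 in the cultured libraries), so the filter kept it only through the library where it is high. Without Batf, 2 of 6 AP-1 relatives were higher and the median was 0.49. Of 15 upstream kinases and factors, 4 were higher and 0 lower (median 0.20), a share near the 23.2% of all genes that were higher. Among them were Srf, which encodes serum response factor (1.05, adjusted p = 0.00448), and its partner Elk3 (1.51, 0.00875). Elk3 was not higher in IEC than in NSC, with an FPKM of 19.9 in IEC, 20.7 in NSC and 2.31 to 5.42 in the pluripotent libraries. Of 8 MAP kinase phosphatases other than Dusp1, 2 were higher and 1 lower (median 0.72), shares near the 23.2% and 16.7% of all genes. Dusp10 stood at 1.90 (adjusted p = 0.000492) and Dusp9 at -3.82 (0.00506). Dusp9 rose in both routes (6.16, adjusted p = 0.00188, in the neural and 5.86, 0.00204, in the intestinal), to an FPKM of 50.3 to 124 in the CiPSC lines from 0.242 in NSC and 1.12 in IEC. Dusp6, which is itself switched on by ERK signalling, fell in the neural route by 3.47 (log2, adjusted p = 0.0390). Both tested relatives of Zfp36, Zfp36l1 and Zfp36l2 (1.27, adjusted p = 0.0296), were higher in IEC, as were 23.2% of all genes.

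Counts for the other stress lists are given beside those of all genes, and no difference between lists was tested. These lists too were chosen with earlier results of these data known. Of 11 tested NF-kB targets and feedback genes, 8 were higher in IEC and 0 lower (median 1.63), beside 23.2% and 16.7% of all genes. The largest differences were those of the chemokines Ccl2 (5.04, adjusted p = 0.00366) and Cxcl1 (3.76, 0.000696). Cxcl1 had an FPKM of 14.8 in IEC and 0 to 0.577 in the cultured libraries, so it too was tested only through IEC, and without it 7 of 10 genes were higher, with a median of 1.58. In the intestinal route, which shares the IEC library, 8 of the 11 fell and 0 rose, beside 26.2% and 19.1% of genes. Of 9 integrated stress response genes, 2 were higher (Cebpb 3.28, Atf5 2.71) and 2 lower (Asns -1.98, Sesn2 -1.64), with a median of 0.27. These shares are near the 23.2% and 16.7% of all genes. Asns was not lower in IEC than in NSC, with an FPKM of 43.3 in IEC, 37.2 in NSC and 129 to 453 in the pluripotent libraries. Of 12 heat shock genes, 2 were higher and 5 lower (median -0.95), beside the same 23.2% and 16.7% of all genes. Hsp90aa1, a cytosolic chaperone, had an FPKM of 277 in IEC and 474 in NSC, against 2859 to 3744 in the pluripotent libraries. The 2 higher heat shock genes were Hspa1a (1.78) and Hspa1b (2.02), near-identical copies between which reads are uncertain. The macrophage markers given above were also higher in IEC, and the part of macrophages in the NF-kB list was not tested.

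**Figure D5:**
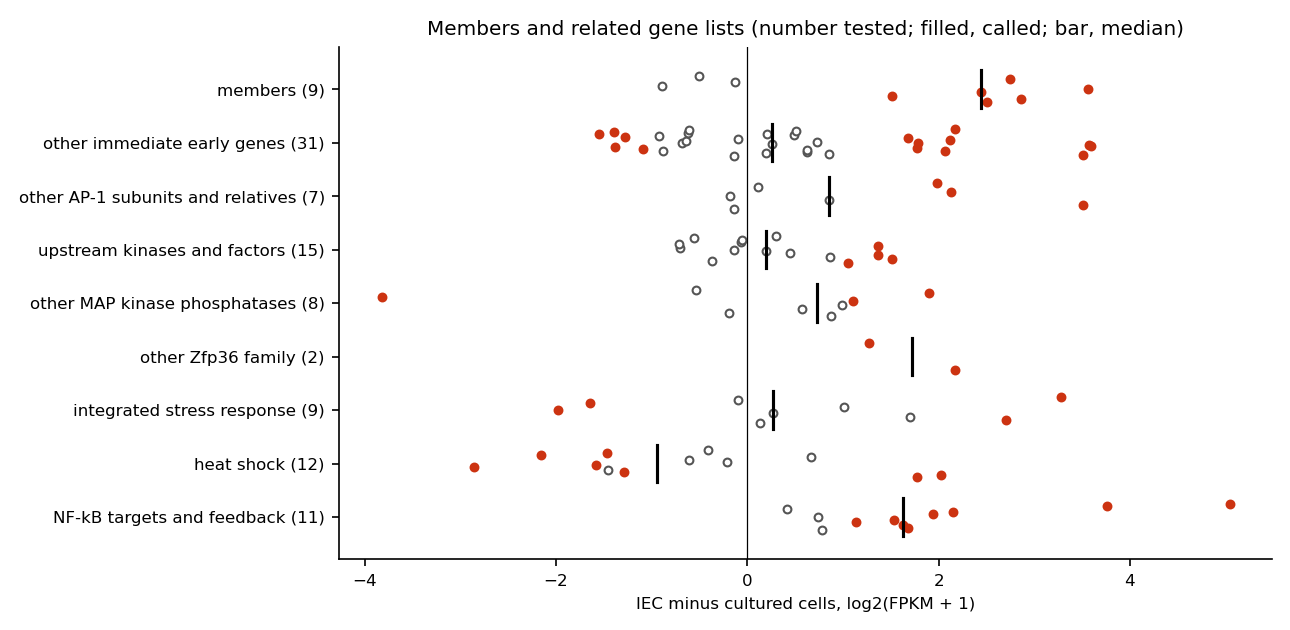
Difference of IEC from cultured cells (log2, horizontal) for each tested gene of the members and the 8 related lists, 1 row per list, with filled points for called genes and a bar for the median. The medians run from -0.95 for heat shock genes to 1.72 for the Zfp36 relatives and 2.44 for the members.

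Likeness to the members was measured as Pearson's r over the 8 libraries with the mean of the 10 member profiles, each centred on its own mean. This mean profile stood at 1.28 (log2) in IEC, 0.06 in NSC and -0.11 to -0.51 elsewhere, so r largely reads the height of 1 library. Of 9935 protein-coding candidates, 800 had r above 0.9. The 8 highest were Cyp1b1 (0.992), Cd14 (0.988), Chd3 (0.987), Fosl2 (0.987), A630007B06Rik (0.986), Fads3 (0.984), Myl9 (0.984) and Phactr2 (0.984). Cd14 is a monocyte and macrophage receptor and Myl9 a smooth muscle myosin light chain, 2 cell types whose markers were raised in IEC. Any gene high in IEC alone would have a high r, so the ranking does not single out these cell types. Among members, r over the same 8 libraries was 0.97 for Fos with Jun, 0.95 for Jun with Egr1, 0.96 for Atf3 with Zfp36 and 0.90 for Junb with Zfp36. It was -0.83 for Fos with Ier2 and 0.67 for Ier3 with Dusp1. These are descriptions over libraries that share lines and a single IEC sample.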

How the data were processed

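RNA-seq levels were the authors' deposited FPKM values. The submitters' processing notes name TopHat, Cufflinks and mm10, while tool versions and the annotation are not given in the sources used here. The labels' protocols name total RNA from the RNeasy Plus Mini kit and a NEBNext Ultra library kit. Each table held 39009 entries. Those marked LOWDATA (428) or FAIL (19) in any library and 162 on patches were left out, and 27 symbols stored as dates were restored from identifiers. Depth per library is not stated. Where the interval of a gene is symmetric and reflects counting alone, it implies a number of fragments. For 5 members these numbers were whole in every library (within 0.05), and for the other members they cannot be read as counts.

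The 17011 genes that reached FPKM 1 somewhere were fitted together on log2(FPKM + 1) with limma 3.58.1 in R 4.3.3, with 1 mean for each of 5 groups and an intensity trend (3 residual and 1.10 prior degrees of freedom). P-values were adjusted over all genes tested. The script was tested on simulated data. Alternatives were the pseudocount, filters, scalings, the mitochondrial share, the trend, which cultured groups enter, and leaving out each line. Promoters were read from RefSeq (GRCm38.p6).

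Named genes were all members, at most 4 called genes of largest change from each list and the 8 genes most like the members. Members and lists were chosen with earlier results of these data known.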

Additional observations from a re-analysis of the deposited data

Results flagged for a closer look

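The change from IEC to IEC-CiPSC differed from the change from NSC to NSC-CiPSC for 4 of the 9 tested members by the limma test of the difference (1 higher and 3 lower, beside 12.9% and 17.6% of all genes tested). For Junb the intestinal change minus the neural change was -2.37 (log2, adjusted p = 0.00145), as it fell by 1.42 in the intestinal route and was 0.95 higher in the neural route. For Atf3 the difference was -2.55 (adjusted p = 0.00195), from -1.99 and 0.55. For Zfp36 it was -3.58 (adjusted p = 0.00135), from -2.46 and 1.12. For Dusp1 it was 1.05 (adjusted p = 0.0431), from 1.68 and 0.63, and this call was lost in 9 of 13 alternatives, with an adjusted p of up to 0.135. NSC and IEC are single libraries and each enters its difference in full, so the p-values cannot show that the routes differ beyond these 2 libraries.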

How the results depend on the processing

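Over 63 member results and 855 recomputed values, 805 kept their direction and side of the threshold, 27 lost a call, 14 gained one and 9 changed sign without being called. The number of members called in IEC against cultured cells stayed between 4 and 7. Over all genes, 2356 were higher and 992 lower in the setting with 4 (spread over all cultured libraries). In the setting with 7 (pluripotent groups alone) these were 4553 and 3398. The 1 member called in IEC-CiPSC against ESC became 0 to 2 on leaving out 1 NSC-CiPSC line, and the 1 called between the CiPSC groups also became 0 to 2. Calls over all genes against ESC ran from 79 higher and 130 lower without line 3 to 472 and 418 without line 1. Between the CiPSC groups they ran from 40 and 102 to 323 and 466. Changes of sign were in small values. Ier3 in IEC against cultured cells was 0.24 (log2) with median-ratio scaling and 0.075 against NSC and ESC alone, where Dusp1 was 0.041. Ier3 in NSC-CiPSC against ESC was -0.013 with median-ratio scaling and -0.28 to 0.60 on leaving out 1 line. Fos in NSC-CiPSC against IEC-CiPSC was -0.0020 with median-ratio scaling and -0.24 to 0.33 on leaving out 1 line. Egr1 in IEC against cultured cells was also lost against NSC and ESC alone (adjusted p = 0.0701), and in the neural route it was called with a pseudocount of 5 (0.0282) and with a minimum of FPKM 5 (0.0469). Junb in the neural route was called with a pseudocount of 0.1 (1.05) and after quantile normalization (1.13). The cause of these changes was not tested. No paired analysis was possible because NSC, IEC and ESC are 1 library each, so that no groups compared share 2 or more replicate numbers, and the labels tie no line to a library of its starting cells. Fosb had at most 27 implied fragments in a library, so its values carry wide counting intervals.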
